A study of Homo sapiens with 5 samples.

Results

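The intergenic TEAD4 peaks that lie within reach of a gene were examined in LX-2, an established human hepatic stellate cell line with a myofibroblastic phenotype. A peak was counted here when its summit lay outside every protein-coding gene body, more than 1 kb from the transcription start site (TSS) of any protein-coding or lncRNA transcript, and at most 100 kb from the nearest protein-coding TSS (GENCODE release 44, hg38). Of the 21113 peaks listed, 5178 met this definition (24.5%, 95% Wilson interval 23.9 to 25.1). The other peaks were 3446 promoter peaks (at most 1 kb from a TSS), 9132 peaks inside coding genes and 3357 peaks beyond 100 kb. The series held 5 libraries from LX-2 cells given DMSO, the vehicle: 3 chromatin immunoprecipitations (ChIP) with an anti-TEAD4 antibody and 2 inputs, the first of them shared by replicates 1 and 2. The single peak list was made by the authors from TEAD4 replicates 1 and 3 jointly, after replicate 2 had been left out for low concordance. All cells came from 1 cell line under 1 condition, with no TEAD4-depleted or untreated sample, so comparisons were made between classes of peaks and not between conditions. The list gives no value per library and no read depth, hence no spread between replicates could be calculated. Intervals cover counting error only.

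TEAD4 belongs to the TEAD family of transcription factors, which bind DNA through a conserved domain and recruit the coactivators YAP1 and TAZ (WWTR1), the effectors kept in check by the Hippo kinases MST and LATS. In many cell types TEADs occupy distal enhancers more often than promoters, frequently beside AP-1 (FOS-JUN) dimers, and control genes of growth, adhesion and matrix. In stellate cells YAP1 and TEAD are known to take part in the acquisition of the contractile, matrix-producing myofibroblast state.

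To show what these peaks look like, the sequence within 100 bp of the summit is given for 12 of them, read from hg38 on the forward strand. Capitals mark the TEAD motif (ACATTCC, or GGAATGT on the other strand) and the AP-1 motif (TGACTCA or TGAGTCA). Names are those of the gene with the nearest coding TSS. The 3 strongest peaks with both motifs come first. The peak near ZNF462 is also among the 3 strongest with 2 or more TEAD motifs, together with those near TRIP13 and SLX9.
ZNF462 chr9:106799282-106799482: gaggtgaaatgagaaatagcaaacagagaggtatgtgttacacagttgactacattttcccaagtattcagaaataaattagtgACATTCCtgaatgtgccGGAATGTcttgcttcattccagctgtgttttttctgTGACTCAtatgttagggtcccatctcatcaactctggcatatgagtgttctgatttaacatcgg
PPP1R36 chr14:64612148-64612348: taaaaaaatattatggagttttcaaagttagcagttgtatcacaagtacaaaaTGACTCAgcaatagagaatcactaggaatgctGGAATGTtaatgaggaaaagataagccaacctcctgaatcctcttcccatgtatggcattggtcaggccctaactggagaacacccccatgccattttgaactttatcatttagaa
HAO2 chr1:119279538-119279738: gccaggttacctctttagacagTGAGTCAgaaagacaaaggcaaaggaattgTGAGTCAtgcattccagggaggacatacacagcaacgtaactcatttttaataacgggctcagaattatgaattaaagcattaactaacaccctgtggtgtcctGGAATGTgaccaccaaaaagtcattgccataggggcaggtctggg
TRIP13 chr5:956976-957176: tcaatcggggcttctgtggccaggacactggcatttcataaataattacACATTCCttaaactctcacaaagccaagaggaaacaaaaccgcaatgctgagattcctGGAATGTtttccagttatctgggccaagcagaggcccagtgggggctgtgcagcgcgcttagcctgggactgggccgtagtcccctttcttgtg
SLX9 chr21:45012442-45012642: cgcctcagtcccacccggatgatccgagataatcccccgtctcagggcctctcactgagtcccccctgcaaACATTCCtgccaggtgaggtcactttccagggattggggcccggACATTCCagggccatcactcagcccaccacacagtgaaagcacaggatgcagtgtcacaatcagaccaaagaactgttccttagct
Both TEAD motifs near ZNF462 were in opposite orientation, centred 13 bp before and 4 bp after the summit, and its AP-1 motif lay 40 bp after it. Near TRIP13 the motifs also lay on opposite strands, whereas near SLX9 both lay on the forward strand. The next sequences are the strongest intergenic peak of each of the 5 YAP-TEAD target genes with the most such peaks. These genes were chosen after their values were seen.
CCN1 chr1:85607360-85607560: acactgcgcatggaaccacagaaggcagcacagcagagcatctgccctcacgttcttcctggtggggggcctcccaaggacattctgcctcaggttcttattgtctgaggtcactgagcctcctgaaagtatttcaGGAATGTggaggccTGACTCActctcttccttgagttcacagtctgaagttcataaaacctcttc
F3 chr1:94622814-94623014: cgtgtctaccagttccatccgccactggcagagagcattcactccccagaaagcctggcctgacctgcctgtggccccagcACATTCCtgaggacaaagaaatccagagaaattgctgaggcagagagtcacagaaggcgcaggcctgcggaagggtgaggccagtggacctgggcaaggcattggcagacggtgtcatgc
NT5E chr6:85403711-85403911: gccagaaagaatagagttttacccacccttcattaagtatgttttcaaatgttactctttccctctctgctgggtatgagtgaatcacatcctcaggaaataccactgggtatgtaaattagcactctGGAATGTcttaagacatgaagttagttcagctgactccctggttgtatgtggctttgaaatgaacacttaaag
AMOTL2 chr3:134326995-134327195: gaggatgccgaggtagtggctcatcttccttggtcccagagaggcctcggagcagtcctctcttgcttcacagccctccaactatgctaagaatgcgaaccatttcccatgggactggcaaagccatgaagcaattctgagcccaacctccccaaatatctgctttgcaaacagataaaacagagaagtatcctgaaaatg
TGFB2 chr1:218496693-218496893: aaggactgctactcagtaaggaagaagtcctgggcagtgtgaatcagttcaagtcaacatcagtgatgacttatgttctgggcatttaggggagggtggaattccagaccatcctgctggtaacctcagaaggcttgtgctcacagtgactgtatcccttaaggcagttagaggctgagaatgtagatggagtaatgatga
The peak 26.0 kb beyond the start of CCN1 held a TEAD motif centred 39 bp from the summit and an AP-1 motif centred 53 bp from it, on the same side. Those of F3 and NT5E held a TEAD motif 16 and 31 bp from the summit, and those of AMOTL2 and TGFB2 held neither motif in this window. The last pair are the strongest peaks with neither motif. The first of them had the highest signal value of the whole list.
NUP155 chr5:37272681-37272881: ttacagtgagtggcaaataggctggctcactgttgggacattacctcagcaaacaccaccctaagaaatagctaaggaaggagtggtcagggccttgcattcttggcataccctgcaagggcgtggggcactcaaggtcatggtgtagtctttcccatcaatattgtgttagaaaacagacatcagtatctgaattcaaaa
BDH1 chr3:197490125-197490325: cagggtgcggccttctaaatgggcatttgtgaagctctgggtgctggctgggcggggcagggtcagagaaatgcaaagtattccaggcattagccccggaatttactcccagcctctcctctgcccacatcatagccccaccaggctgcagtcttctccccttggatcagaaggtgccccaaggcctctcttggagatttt

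Intergenic TEAD4 peaks were spread over the whole range of distances allowed. Their median distance to the nearest coding TSS was 28.7 kb (quartiles 12.7 and 54.3 kb). Divided by the sequence that meets the definition (688.65 Mb), there were 7.52 peaks per Mb (exact Poisson interval 7.32 to 7.73), close to the 7.73 per Mb inside coding genes, lower than the 20.4 per Mb at promoters and higher than the 3.74 per Mb beyond 100 kb. The density was 9.13 per Mb at 1 to 5 kb (8.36 to 9.94), 7.34 at 5 to 10 kb, 7.47 at 10 to 25 kb, 7.85 at 25 to 50 kb and 6.90 at 50 to 100 kb (6.55 to 7.26). Thus, the nearest class was the densest, and its interval did not overlap that of any other class. Upstream of the nearest TSS lay 3399 peaks, 65.6% of them (64.3 to 66.9), while upstream sequence made up 63.5% of the sequence searched. The resulting densities were 7.77 per Mb upstream (7.51 to 8.04) and 7.08 downstream (6.75 to 7.42). The gap was widest at 10 to 25 kb, with 7.98 per Mb upstream and 6.52 downstream. Peaks inside lncRNA genes numbered 1279 (24.7%), that is 8.18 per Mb (7.74 to 8.64) against 7.32 outside them (7.10 to 7.56). Among chromosomes the density was highest on chromosome 20 (13.7 per Mb, 227 peaks) and chromosome 5 (10.2 per Mb, 392 peaks), and lowest on X (3.04 per Mb, 139 peaks) apart from Y, which had none.

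**Figure D1:**
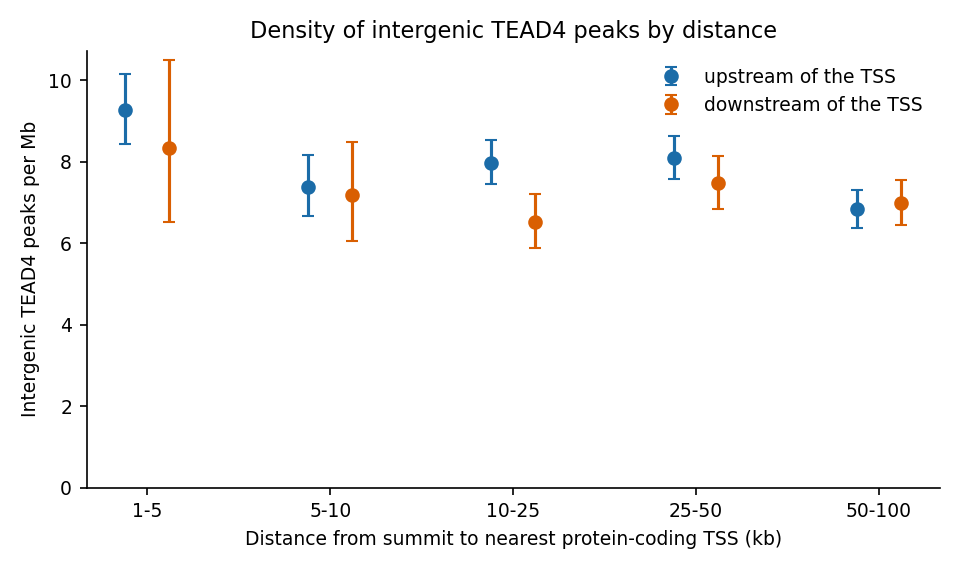
Intergenic TEAD4 peaks per Mb of sequence that meets the definition (vertical axis) in 5 classes of distance to the nearest protein-coding TSS (horizontal axis, kb), upstream (blue) and downstream (orange) of that TSS; bars are exact 95% Poisson intervals. The values run from 9.27 per Mb at 1 to 5 kb upstream down to 6.52 per Mb at 10 to 25 kb downstream.

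The sequence under the summits was then searched on both strands for 12 short motifs, and the shares were set against windows of the same width centred 2000 bp to either side of the same summits. The TEAD motif was present in 1223 of 5178 peaks (23.6%, 22.5 to 24.8), against 23.0% of all listed peaks and 2.65% of 10356 flanking windows (2.35 to 2.97). The odds were thus 11.4 times higher at the summit (interval 9.93 to 13.0; p by Fisher's exact test, always two-sided here, was too small to be represented). The AP-1 motif was even more frequent, with 1409 peaks (27.2%, 26.0 to 28.4), against 25.4% of all listed peaks and 3.44% of flanking windows (odds ratio 10.5, 9.29 to 11.9, p too small to be represented). The RUNX motif TGTGGTT, bound by the runt-domain factors, was present in 9.37% of peaks and 3.56% of flanks (odds ratio 2.80, 2.43 to 3.22, adjusted p = 9.78e-47 by Fisher's exact test with Benjamini-Hochberg adjustment over the 12 motifs). It was present in 9.53% of all listed peaks. The E-box CAGATG, a site of basic helix-loop-helix factors, was present in 18.0% of peaks and 13.5% of flanks (odds ratio 1.41, 1.29 to 1.54, exact test, adjusted p = 5.67e-13), and in 16.7% of all listed peaks. As a control of equal base composition, the TEAD motif read backwards (CCTTACA) was present in 1.80% of peaks and 1.91% of flanks (exact test, adjusted p = 0.66), and in 2.00% of all listed peaks. Neighbouring peaks are not independent, so all p-values given for peaks are approximate. Each summit window is also matched to the flanking windows of the same summit, and the tests against flanks did not use this matching.

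Motifs of other factor families were rare under these summits. The SP/KLF box GGGCGGG was present in 2.80% of peaks and 1.55% of flanks (odds ratio 1.84), the core of the CTCF site (AGGGGGC) in 3.13% and 2.36% (1.34), the ETS motif CCGGAAG in 1.37% and 0.647% (2.13) and the CRE TGACGTCA in 0.309% and 0.0676% (4.58, from 16 peaks). These 4 passed the adjusted threshold of 0.05, although the CTCF core lost it under 2 and CRE under 1 of 10 alternative settings. Also past it were the FOX motif TGTTTAC (3.40% against 2.76%) and the GATA motif AGATAAG (3.75% against 2.92%), each of which lost it under 4 of these 10 settings. The CArG box, which binds SRF, was present in 1.27% of peaks and 1.39% of flanks (exact test, adjusted p = 0.66). Among all listed peaks these shares were 5.08% for SP/KLF, 3.45% for the CTCF core, 2.11% for ETS, 0.45% for CRE, 3.52% for FOX, 3.49% for GATA and 1.58% for the CArG box.

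Motif positions followed the summits (as plotted by distance from the summit). The median distance from motif centre to summit was 18 bp for TEAD, 35 bp for AP-1 and 38 bp for RUNX, against 51.5 bp for the backwards control. TEAD matches were 17.3 times denser within 50 bp of the summit than at 400 to 490 bp from it. This ratio was 9.46 for AP-1, 3.27 for RUNX and 0.90 for the control. Within 100 bp of the summit, 66.5% of the 1367 TEAD matches lay at most 25 bp from it, compared with 39.2% of the 1559 AP-1 matches. Hence, with matches pooled over all intergenic peaks, TEAD motifs lay closer to the summit than AP-1 motifs did. The distances were not compared within the peaks that hold both motifs.

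**Figure D2:**
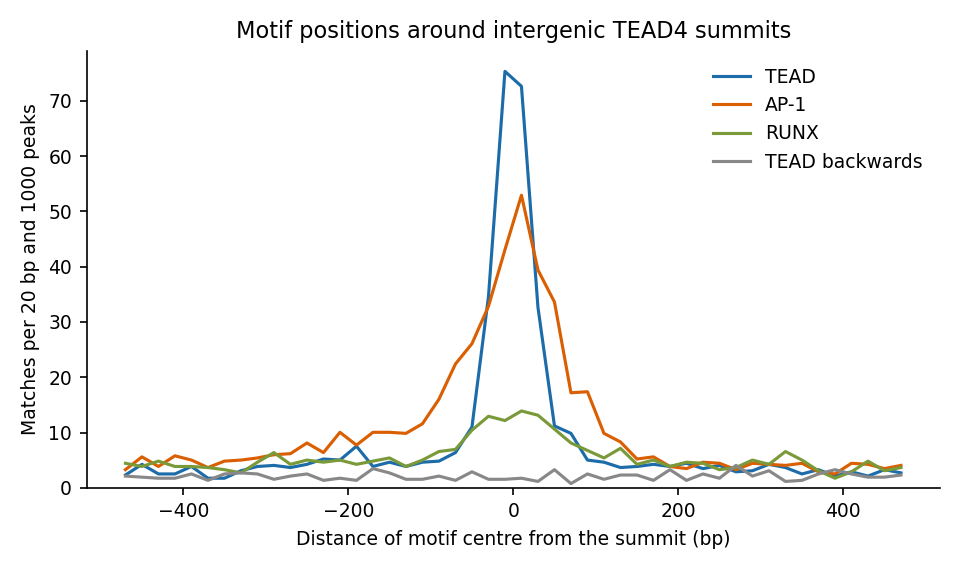
Number of motif matches per 20 bp and per 1000 intergenic TEAD4 peaks (vertical axis) by distance of the motif centre from the summit (horizontal axis, bp) for TEAD (blue), AP-1 (orange), RUNX (green) and the TEAD motif read backwards (grey). TEAD forms the narrowest and highest peak, AP-1 a lower and broader one, and the control stays flat.

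Bases next to the TEAD motif also differed between summits and flanks. Read in the orientation of ACATTCC, the base directly after the motif was C in 13.4% of 1362 matches at summits (11.7 to 15.4) and in 28.3% of 283 matches in flanks (23.3 to 33.8). The following base was G in 42.0% of matches at summits (39.4 to 44.6) against 23.7% in flanks (19.1 to 29.0). Directly before the motif, C was found in 41.7% of matches at summits (39.1 to 44.3) and 30.0% in flanks. These are descriptions without a test.

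It was next examined whether these distal peaks differ in motif content from the other classes, over 36 tests (12 motifs, 3 classes). The TEAD motif was present in 21.8% of promoter peaks (odds ratio of intergenic against promoter peaks 1.11, 1.00 to 1.23, adjusted p = 0.109), 23.0% of peaks inside genes (1.03, 0.955 to 1.12, adjusted p = 0.527) and 23.1% of peaks beyond 100 kb (1.03, 0.931 to 1.14, adjusted p = 0.656, all Fisher's exact tests). No difference in TEAD share passed the threshold. Intergenic peaks exceeded promoter peaks past it under 2 of 11 alternative settings (exact tests, adjusted p = 0.0396 with 1 TSS per gene and 0.0359 with a window of 250 bp), and peaks beyond 100 kb under 1 (0.0201 with the shorter sequence CATTCC). In contrast, the AP-1 motif was less frequent at promoters (15.9%, 14.7 to 17.1) than at intergenic peaks (odds ratio 1.98, 1.77 to 2.21, exact test, adjusted p = 9.27e-35). It reached 27.1% inside genes (odds ratio 1.00, 0.929 to 1.08) and 27.6% beyond 100 kb (0.979, 0.888 to 1.08), with no difference past the threshold (exact tests, adjusted p = 0.981 and 0.757). The RUNX motif was less frequent at intergenic peaks than beyond 100 kb (12.1%, odds ratio 0.749, 0.651 to 0.861, exact test, adjusted p = 2.28e-04). It was more frequent than at promoters (5.60%, odds ratio 1.74, exact test, adjusted p = 5.60e-10). Inside genes its share was 10.2% (odds ratio 0.914, 0.814 to 1.03, exact test, adjusted p = 0.245), with no difference past the threshold.

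GC-rich motifs followed the opposite order. The SP/KLF box was present in 20.4% of promoter peaks (odds ratio 0.113, exact test, adjusted p = 1.72e-159) but in 0.894% of peaks beyond 100 kb (odds ratio 3.20, 2.15 to 4.75, adjusted p = 9.83e-10). The CTCF core was present in 8.42% of promoter peaks and 1.97% of those beyond 100 kb (odds ratio 1.61, 1.21 to 2.15, exact test, adjusted p = 0.0039). ETS and CRE motifs were also less frequent than at promoters, at which they reached 7.05% and 1.57%. The median GC content of the windows moved with these shares, being 44.8% at intergenic peaks, 54.7% at promoters, 43.3% inside genes and 41.3% beyond 100 kb; its part in these differences was not tested for these motifs. Inside genes, 2 motifs passed the threshold, SP/KLF (2.15%, odds ratio 1.31, exact test, adjusted p = 0.0456) and the CTCF core (2.31%, odds ratio 1.37, adjusted p = 0.0113), and under 5 of 10 alternative settings that count was 0 or 1. In total 8 of 12 motifs differed from promoters, 4 higher and 4 lower.

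**Figure D3:**
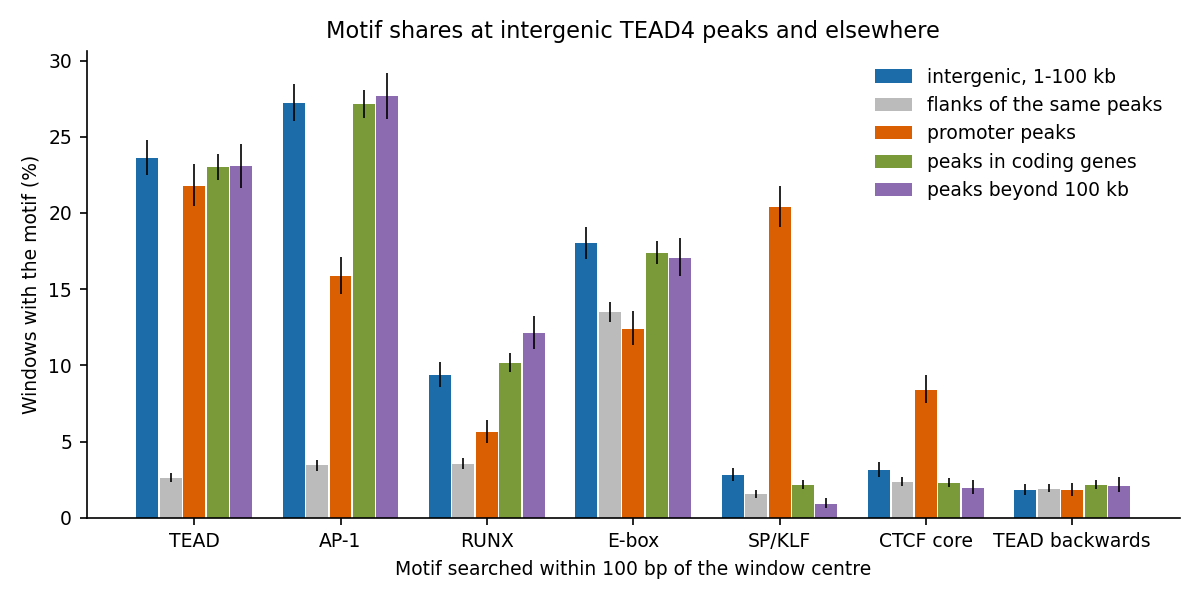
Share of windows (100 bp to either side) with each of 7 motifs (vertical axis, percent) at the 5178 intergenic TEAD4 peaks (blue), in their flanks 2000 bp away (grey), and at promoter peaks (orange), peaks inside coding genes (green) and peaks beyond 100 kb (purple); bars are 95% Wilson intervals. TEAD shares lie between 21.8% and 23.6% in all 4 peak classes, whereas AP-1 drops to 15.9% and SP/KLF rises to 20.4% at promoters.

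Near and far intergenic peaks did not differ detectably in either motif. TEAD was present in 24.7% of 1040 peaks at 1 to 10 kb from the TSS and in 24.0% of 1467 peaks at 50 to 100 kb (odds ratio 1.04, 0.864 to 1.25, adjusted p = 0.705, Fisher's exact test). AP-1 was present in 25.7% and 28.0%, respectively (odds ratio 0.887, 0.741 to 1.06, exact test, adjusted p = 0.403). RUNX shares ran from 7.24% at 1 to 5 kb to 9.79% at 25 to 50 kb, with overlapping intervals.

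Within the intergenic peaks, AP-1 was less frequent where TEAD was present. The AP-1 motif was present in 268 of the 1223 peaks with a TEAD motif (21.9%, 19.7 to 24.3) and in 1141 of the 3955 without it (28.8%, 27.5 to 30.3), an odds ratio of 0.692 (0.595 to 0.806, Fisher's exact test, p = 1.43e-06). Accordingly 955 peaks held TEAD only (18.4%), 1141 AP-1 only (22.0%), 268 both (5.18%) and 2814 neither (54.3%). In peaks with both, the centres of the nearest TEAD and AP-1 motifs were a median of 39 bp apart, at most 10 bp apart in 18 peaks, over 10 and up to 25 bp in 76, up to 50 bp in 73, up to 100 bp in 81 and farther in 20. Of the peaks with neither motif, 33.7% held the shorter sequence CATTCC, contained in the TEAD motif, against 29.6% of those with AP-1 only. CATTCC is present in 46.8% of all listed peaks, but that share includes the peaks with the full TEAD motif and is not a like measure.

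Repeated TEAD motifs were uncommon. Of the 1223 peaks with a TEAD motif, 125 (10.2%) had 2 or more, and these formed 139 neighbouring pairs, 99 in the same orientation and 40 in opposite orientations. The most frequent arrangements were same-strand motifs separated by 2 bp (11 pairs) and by 46 bp (10 pairs). No other spacing was found in more than 6 pairs. The median signal value was 95.1 with 2 or more TEAD motifs and 81.3 with 1.

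The signal value, the measure of enrichment given for each peak on a scale whose normalization is not given in the sources used here, was somewhat higher at intergenic peaks than at promoters. Its median was 71.1 at intergenic peaks (quartiles 48.0 and 118.3, range 6.57 to 1074), 62.7 at promoters, 67.9 inside genes and 69.5 beyond 100 kb. By construction 50% of all listed peaks lie above the median of the list (68.1). Intergenic peaks exceeded it in 52.4% (50.99 to 53.7), against 45.2% of promoter peaks (odds ratio 1.33, 1.22 to 1.45, adjusted p = 2.24e-10), 49.9% of peaks inside genes (1.10, 1.03 to 1.18, adjusted p = 0.00807) and 51.5% of peaks beyond 100 kb (1.04, 0.950 to 1.13, adjusted p = 0.438, Fisher's exact tests). The difference from peaks inside genes no longer passed the threshold when only the peaks with the highest reproducibility score were kept (exact test, adjusted p = 0.329) or when peaks inside lncRNA genes were left out (adjusted p = 0.138).

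Signal value went with the TEAD motif more than with AP-1. The median was 66.3 in peaks with neither motif (quartiles 44.9 and 108.4), 70.5 with AP-1 only (49.1 and 116.6), 81.2 with TEAD only (53.0 and 139.6) and 89.8 with both (60.7 and 161.3). The share above the list median was 48.7% with neither motif, 59.6% with TEAD only (odds ratio 1.55, 1.34 to 1.80, exact test, adjusted p = 1.84e-08) and 66.8% with both (odds ratio 2.12, 1.62 to 2.76, adjusted p = 2.15e-08). For AP-1 only it was 51.9% (odds ratio 1.13, 0.989 to 1.30, adjusted p = 0.0735, Fisher's exact tests), and this last comparison changed with the processing. It passed the threshold under 2 of 8 alternative settings (exact tests, odds ratio 1.17 and adjusted p = 0.0353 with 1 TSS per gene, 1.25 and 0.0061 with a window of 50 bp) and turned below 1 under 3, without passing it. Without the weaker of each pair of summits 200 to under 220 bp apart, the odds ratio was 1.37 for TEAD only, 1.79 for both and 0.998 for AP-1 only. When the intergenic peaks were ordered by signal value and cut into quintiles, the TEAD share rose at each step, from 15.7% (13.7 to 18.1) to 21.4%, 24.0%, 24.2% and 32.7% (29.9 to 35.6). AP-1 shares were 21.9%, 27.3%, 30.3%, 27.6% and 28.9%, so that only the weakest quintile stood below the rest. Even so, many strong peaks lacked both motifs: of the 100 strongest, 39 held TEAD, 22 AP-1 and 10 both, and 49 neither, of which 27 had the shorter CATTCC.

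**Figure D4:**
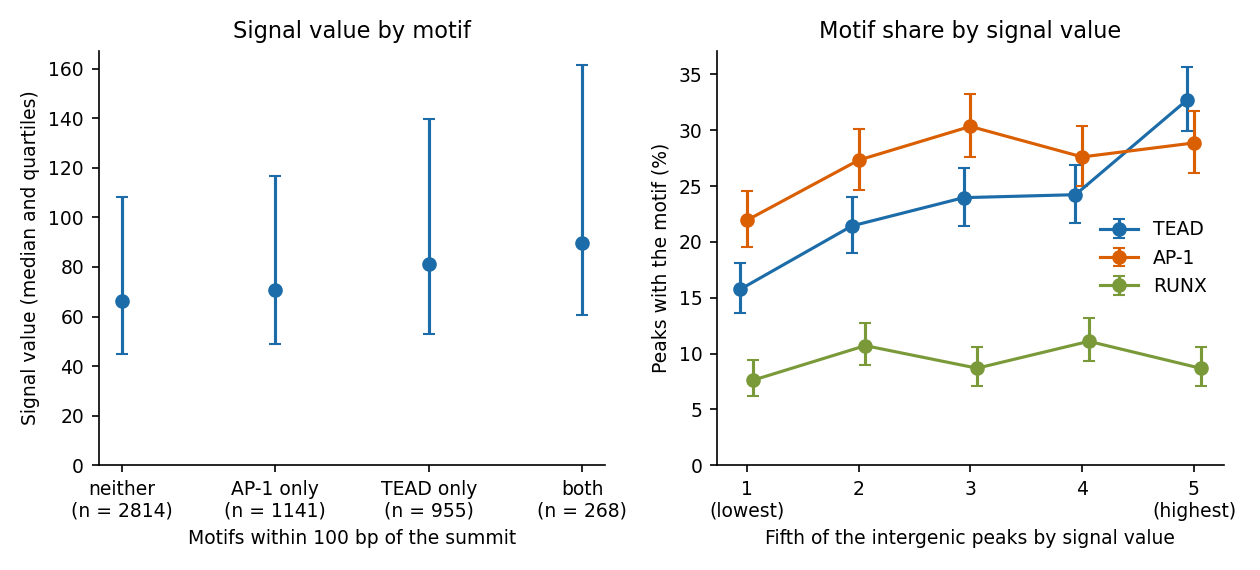
Left, signal value (vertical axis, median with quartiles) of intergenic TEAD4 peaks with neither motif, AP-1 only, TEAD only or both within 100 bp of the summit. Right, share of peaks with the TEAD (blue), AP-1 (orange) or RUNX (green) motif (vertical axis, percent, 95% Wilson intervals) in quintiles of signal value (horizontal axis); TEAD climbs from 15.7% to 32.7%, RUNX stays between 7.63% and 11.1%.

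The strongest intergenic peak lay 20.4 kb from the nearest TSS of NUP155, which encodes a nuclear pore protein, with a signal value of 1074, the highest of all 21113 peaks. It was followed by peaks near BDH1 (853), which encodes a ketone body dehydrogenase, NBPF6 (769) and AMOTL2 (765), the last inside LINC02004, then SLC25A26 (748), HOXC13 (726), SYNDIG1 (710), PAWR (708), CBX7 (698) and TRIP13 (663). Of these 10, the TEAD motif was present at HOXC13 (1 match) and TRIP13 (2 matches) and the AP-1 motif at SLC25A26. At the bounds of the definition, the signal values of the nearest peaks were 147.0 and 41.1 in those just more than 1 kb from a TSS (1004 and 1007 bp), 64.6 and 157.7 in those just inside 1 kb (999 and 998 bp), 192.5 and 38.5 at 99893 and 99917 bp, and 44.8 and 64.7 at 100228 and 100229 bp.

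Intergenic peaks had neighbours more often than promoter peaks. Another peak of the list lay within 12500 bp of 2656 intergenic peaks (51.3%, 49.9 to 52.7). This share was 46.3% for promoter peaks (odds ratio 1.22, 1.12 to 1.33, adjusted p = 1.78e-05), 52.9% inside genes (0.938, 0.876 to 1.00, adjusted p = 0.0974) and 52.2% beyond 100 kb (0.966, 0.886 to 1.05, adjusted p = 0.438, Fisher's exact tests). The difference from promoter peaks no longer passed the threshold under 2 of 9 alternative settings, with neighbours sought within 5 kb (odds ratio 1.11, exact test, adjusted p = 0.0572) and with the weaker peaks, at or below the list median of signal, left out (1.17, adjusted p = 0.0668). That from peaks inside genes passed it when peaks inside lncRNA genes were left out (0.898, exact test, adjusted p = 0.00777). Some of these neighbours were very close: for 605 intergenic peaks (11.7%) the nearest other summit lay 200 to under 220 bp away, and without the weaker of each such pair the share with a neighbour was 45.3%, against 40.1% at promoters (odds ratio 1.23, exact test, adjusted p = 1.47e-05). When intergenic summits at most 12500 bp apart were chained, 3736 groups resulted, of which 2777 were single peaks and 118 held 4 or more (538 peaks).

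The groups with the most peaks lay near TGFB2, UACA and AKAP13. They were followed by groups of 6 peaks, of which those near DAB2 and CCN1 had the highest summed signal values. TGFB2, a TGF-beta ligand gene, had 8 peaks in 22.4 kb, located 42.5 to 64.8 kb beyond its start, with signal values of 46.6, 87.4, 108.0, 69.0, 218.1, 44.2, 189.2 and 33.2 in genome order. UACA had 7 peaks in 24.9 kb, of which 4 held AP-1 and 1 TEAD, with signal values from 50.8 to 343. AKAP13, which encodes an anchoring protein of protein kinase A, had 7 peaks over 39.5 kb (40.7 to 352). DAB2, an endocytic adaptor gene, had 6 peaks over 25.6 kb (19.4 to 659). CCN1, which encodes a matricellular protein, had 6 peaks within 5.94 kb, with signal values of 573, 35.7, 181.5, 116.3, 28.1 and 21.0 in order of distance from its start. Several of these summits lay close together: both pairs 200 to under 220 bp apart counted as separate peaks, and merging overlapping peaks left 3 regions at CCN1, against 7 at TGFB2 and 5 in the group near DAB2. The strongest peak held neither motif in the groups near TGFB2, UACA and DAB2.

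Given to the gene with the nearest coding TSS, the peaks fell to 2870 of 20007 protein-coding genes (14.3%). The genes differ in how much intergenic sequence is nearest to them, termed territory here (median 24.5 kb over the 16165 genes that have any), and larger territories can hold more peaks. Of the 2870 genes, 1179 had 2 or more peaks and 149 had 5 or more. BMP4, a BMP ligand gene, had the most, with 11 peaks in 196.9 kb of territory. Their signal values ran from 9.68 to 293.9, the strongest 40.5 kb upstream with a TEAD motif. UGCG, which encodes glucosylceramide synthase, followed with 10 peaks (13.3 to 247), none with a TEAD motif. The next 8 genes had 9 peaks each: CDC42EP3, a CDC42 effector gene, DPYD, which encodes the first enzyme of pyrimidine breakdown, NR2F2, which encodes the nuclear receptor COUP-TFII, BTBD3, RAI14, PDGFC, a PDGF ligand gene, FAM50B and BLID. Their strongest peaks had signal values from 233 (NR2F2) to 549 (CDC42EP3). Merging overlapping peaks left 10 regions at BMP4, 9 at UGCG, 6 at DPYD and 7 to 9 at the others. A promoter peak of their own was present in 19.8% of genes with an intergenic peak (18.4 to 21.3, median territory 69.8 kb) and in 10.9% of genes without one (10.4 to 11.4, median territory 19.1 kb), a description only, as territory differs between these groups.

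Among genes of the YAP-TEAD target signature, 17 of 22 had at least 1 intergenic peak (77.3%, 56.6 to 89.9), against 14.3% of all coding genes. The median was 2 peaks per gene against 0 over all coding genes. Their territories were large, with a median of 92.1 kb against 24.5 kb over all coding genes that have any. Per Mb of territory there were 36.8 peaks (28.1 to 47.4) against 7.52 over all territory. F3, which encodes tissue factor, the initiator of coagulation, had 8 peaks, all upstream by 38.3 to 94.99 kb, with signal values from 30.0 to 271. AMOTL2, whose product binds YAP1, had 5 peaks with signal values of 53.1, 130.0, 765, 127.7 and 409, 4 of them 33.0 to 49.2 kb beyond its nearest TSS and the last 52.2 kb upstream with both motifs. NT5E, which encodes the ectonucleotidase CD73, had 5 upstream peaks with signal values from 45.0 to 226. CCN2, the connective tissue growth factor gene, had 3 peaks with signal values of 89.5, 43.0 and 42.8, each with a TEAD motif. ANKRD1 had 2 peaks, of 351 and 45.8, neither with a motif. CCN2 and ANKRD1 were named for their use as YAP readouts after their values were seen. The 5 genes of this list without an intergenic peak were AXL, PTPN14, ARHGEF17, RBMS3 and AJUBA.

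In the Hippo pathway itself, 9 of 26 genes had an intergenic peak (34.6%, 19.4 to 53.8), against 14.3% of all coding genes, with 20.2 peaks per Mb (12.6 to 30.6) against 7.52 overall. AMOTL2, with 5 of these peaks, and LATS2 also belong to the YAP-TEAD target signature, so both lists count them. SAV1, the scaffold of the MST kinases, had 2 peaks upstream, of 313.9 and 71.6, at 7.46 and 9.62 kb. LATS2, a kinase that phosphorylates YAP1 and TAZ, had 2 upstream peaks of 98.5 and 95.9, and WWC1 (KIBRA), an upstream activator, had 2 peaks with a maximum of 105.8. VGLL2, a TEAD cofactor gene, had 5 peaks 58.4 to 97.4 kb upstream with a maximum of 301. None of the 4 TEAD genes had one, nor did WWTR1, and YAP1 had 2 with a maximum of 76.3. TEAD2 and TEAD3 have no territory, so no peak could be given to them. The largest territories without a peak in this list were those of AMOT (120.2 kb), TEAD1 (97.0 kb) and AMOTL1 (84.1 kb).

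Genes of AP-1 subunits had intergenic peaks in 7 of 12 cases (58.3%, 32.0 to 80.7), against 14.3% of all coding genes, and 26.1 peaks per Mb (14.6 to 43.0) against 7.52 overall. JUN had 6 peaks with signal values of 121.4, 145.1, 83.5, 92.8, 81.4 and 148.4 at 20.7 to 99.5 kb, all above the list median. BATF3 had 3, ATF3 had 2, FOSL1 had 1 at 2.76 kb with a signal value of 228, and JUND had 1 of 171. Of the genes without a peak, JUNB and FOSB have no territory. The others were JDP2 (75.2 kb of territory), BATF (47.8 kb) and BATF2 (14.3 kb).

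TGF-beta and BMP signalling genes had an intergenic peak in 14 of 22 cases (63.6%, 43.0 to 80.3), against 14.3% of all coding genes, with a median of 1.5 peaks per gene and 34.4 per Mb of territory (26.3 to 44.2) against 7.52 overall. Besides BMP4 and TGFB2, SMAD3, which encodes a transducer of the TGF-beta signal, had 7 upstream peaks, with signal values of 54.4, 197.9, 97.5, 604.6, 68.4, 41.6 and 210.2 from the nearest to the farthest. The strongest, 19.2 kb upstream, held a TEAD motif. FST, which encodes the activin antagonist follistatin, had 7 upstream peaks with a maximum of 140.8. Of the genes without a peak, TGFB1 and TGFB3 have no territory. The others were BMP2 (184.2 kb of territory), INHBA (171.6 kb), TGFBR3 (88.1 kb), SMAD4 (52.0 kb), SKIL (32.2 kb) and SKI (15.4 kb). TGFB2 also belongs to the YAP-TEAD target signature.

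Of the scar matrix and cross-linking genes, 18 of 32 had an intergenic peak (56.3%, 39.3 to 71.8), against 14.3% of all coding genes, with 24.4 peaks per Mb (18.2 to 32.1) against 7.52 overall. TNC, which encodes the matrix glycoprotein tenascin-C, had 8 upstream peaks. Those at 28.6 kb (448) and 49.1 kb (395) held neither motif and stood apart from the other 6, which reached at most 97.7. COL6A3, a collagen VI chain gene, had 5 peaks with a maximum of 249, and COL5A2, a collagen V chain gene, had 5 with a maximum of 80.4. The genes of both collagen I chains differed in their peaks. COL1A1 had 3 upstream peaks of 112.3, 226 and 68.3, of which the nearest, at 8.91 kb, held both motifs. COL1A2 had 5 upstream peaks of 10.7, 48.3, 62.9, 40.6 and 74.2, none with either motif. FBN1, which encodes the microfibril protein fibrillin-1, had 4 peaks with a maximum of 96.1.

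Contractile and cytoskeletal genes had an intergenic peak in 6 of 20 cases (30.0%, 14.5 to 51.9), against 14.3% of all coding genes. With weaker peaks (at or below the list median of signal) left out, 3 of the 20 had a peak (15%), against 9.38% of all coding genes. Their territories were small (median 9.41 kb), and per Mb of territory there were 36.1 peaks (21.1 to 57.9) against 7.52 overall. TPM1, a tropomyosin gene, had 8 peaks, the strongest of 266 with a TEAD motif 64.0 kb upstream and the next of 229 without a motif 3.50 kb upstream. CALD1, which encodes caldesmon, had 3 peaks with a maximum of 303 at 1.82 kb. MYH9 and ACTN1 had 2 each, with maxima of 143.5 and 56.7, and MYL9 had 1 of 63.7. ACTA2, the smooth muscle actin gene used to mark myofibroblasts, has no territory. The largest territory without a peak in this list was that of VCL (41.0 kb).

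**Figure D5:**
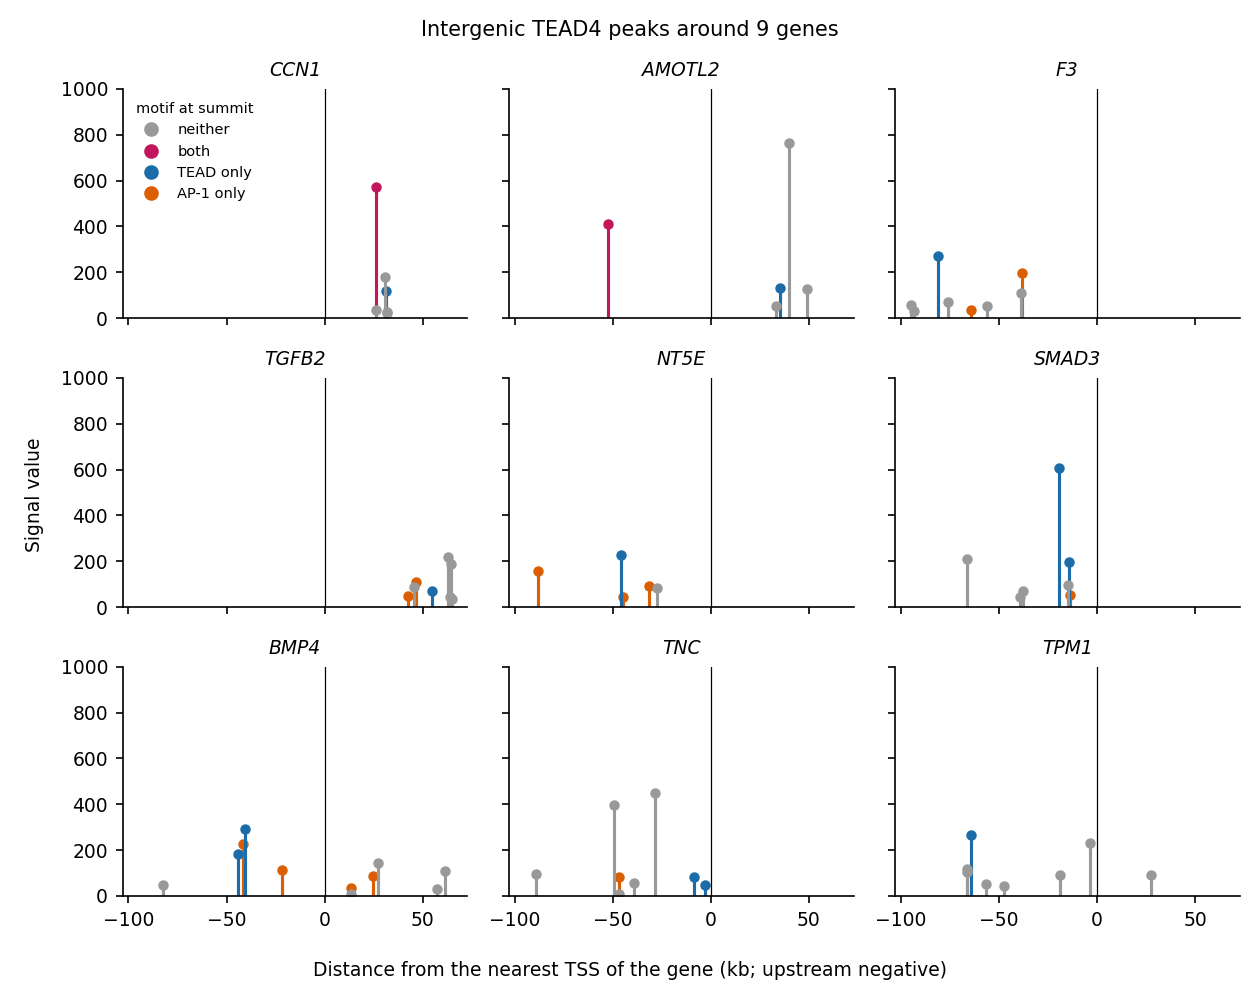
Signal value (vertical axis) of each intergenic TEAD4 peak given to 9 genes, by distance from the nearest TSS of that gene (horizontal axis, kb, upstream negative); colours mark peaks with the TEAD motif only (blue), AP-1 only (orange), both (magenta) or neither (grey). At CCN1 all 6 peaks lie within 26.0 to 31.9 kb downstream, whereas the 11 peaks of BMP4 are spread over both sides.

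Marker genes of liver cell types were compared in the same way. Of 12 stellate cell or myofibroblast markers 6 had an intergenic peak (interval of the share 25.4 to 74.6%), against 14.3% of all coding genes (26.1 per Mb, 14.3 to 43.8), among them SPARC with 3 and LOX and VIM with 1 each. The others with a peak were COL1A1, COL1A2 and COL3A1, and all but VIM also belong to the scar matrix list above. PDGFRB, DES, TAGLN and THY1 had none, THY1 with 106.9 kb of territory. ACTA2 and TIMP1 have no territory. None of 12 hepatocyte markers had one (0 per Mb, at most 10.4), and their territory of 0.355 Mb limits what could be seen. When a gene was counted for any coding TSS within 100 kb of a peak, 3 of the hepatocyte markers had one (25%), against 33.4% of all coding genes. Of the macrophage markers, 1 of 8 had a peak (MARCO, 81.6), as had 1 of 7 endothelial markers (STAB2, 204.6), both shares being close to that of all coding genes. Per Mb of territory there were 2.26 peaks (0.0572 to 12.6) and 2.59 peaks (0.0654 to 14.4), against 7.52 over all territory. By any TSS the counts of macrophage and endothelial markers with a peak were 2 and 3. Of 5 cholangiocyte markers 3 had peaks (60.0%, 23.1 to 88.2), against 14.3% of all coding genes (19.8 per Mb, 7.26 to 43.0). They were KRT7 (119.2 and 403), SOX9 (maximum 43.7) and CFTR (maximum 48.5), and with the weaker peaks left out KRT7 alone had one.

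Gene sets that the study drew from other experiments were described last. They were not chosen independently of this cell line, since 3 of them come from LX-2 cells. Of the myofibroblast (MF) cell identity genes 75 of 129 had an intergenic peak (58.1%, 49.5 to 66.3), against 14.3% of all coding genes, with 24.1 peaks per Mb of territory (21.1 to 27.5). CDC42EP3, NR2F2 and PDGFC led this set with 9 peaks each. The liver fibrosis matrisome had 26 of 71 genes with a peak (36.6%, 21.0 per Mb) and the liver fibrosis set 21 of 61 (34.4%, 14.7 per Mb), in which DAB2 (7 peaks) came first. Among genes assigned to regions that lost H3K27 acetylation, the mark of active enhancers, upon inhibition of OGT, the enzyme that adds O-GlcNAc, 362 of 1198 matched genes had a peak (30.2%, 19.9 per Mb). The lists of genes lower or higher in LX-2 cells with the OGT inhibitor (OGTi) hold at most the top 500 significant genes each, ordered by fold change. They do not cover all responding genes. Genes listed as lower with OGTi had a peak in 166 of 485 matched cases (34.2%, 16.5 per Mb, 14.9 to 18.2). Genes listed as higher with OGTi had a peak in 62 of 471 matched cases (13.2%), or 7.16 per Mb (5.87 to 8.67), close to the 7.52 per Mb of all intergenic sequence. The median territory was 28.3 kb for the lower and 11.4 kb for the higher genes. These counts are descriptions without a test.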

How the data were processed

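TEAD4 ChIP-seq was made by the authors from LX-2 cells given DMSO (3 ChIP and 2 input libraries). They mapped reads to hg38 with Chromap and ran the ENCODE irreproducible discovery rate (IDR) pipeline. Replicates 1 and 3 were concordant enough and gave the 1 peak list used here, while replicate 2 was left out. The peak caller and the normalization of the signal value are not given in the sources used here. The deposited list gives an IDR score (830 to 1000), a signal value and a −log10 q-value per peak, the last used only to count 161 intergenic peaks whose q exceeded 0.05. It holds no value per library and no depth.

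Each summit was placed by GENCODE release 44, using the starts of all transcripts, and the 100 bp to either side of it were searched on both strands for motifs. CATTCC is contained in the TEAD motif. Shares carry 95% Wilson intervals and densities exact Poisson intervals, both for counting error only. Differences between shares were tested with Fisher's exact test (two-sided), p-values being adjusted after Benjamini and Hochberg (threshold 0.05). Calculations used scipy 1.17.1, statsmodels 0.14.6, pandas 2.3.3 and numpy 2.4.6, and plots matplotlib 3.10.9, under Python 3.11.15, after the scripts were tested on simulated data. Each peak was given to the gene of the nearest coding TSS.

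Peaks, motifs and gene lists were chosen with earlier results of these data known. Named were the 10 strongest peaks, the 10 genes with most peaks, the 5 leading genes of each list, the 5 largest groups (ties ordered by summed signal value) and the peaks nearest each bound. Other named genes, and the 5 target gene sequences, were chosen after their values were seen. Of the entries of the H3K27ac list 70.4% matched a gene symbol, so its counts hold for matched genes only. The comparison of repeats was not run, since the genome used here does not mark them. A gene among the leading members of its list is not reported here.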

Additional observations from a re-analysis of the deposited data

How the results depend on the processing

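No paired analysis was possible because replicates 1 and 3 were pooled into 1 peak list. The comparison of repeats and its alternatives were not run, as the genome does not mark repeats. Across 16 alternatives and 501 values, the odds ratios against flanks ran from 5.61 to 19.3 for TEAD and 5.82 to 12.1 for AP-1, that of AP-1 against promoters from 1.59 to 2.65 and that of AP-1 by TEAD from 0.636 to 0.756, all past the threshold. Of 24 values that turned direction none passed the threshold, the smallest adjusted p being 0.268. For changes named here the cause was not tested.

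Leaving out the weaker of 2 summits 200 to under 220 bp apart, chosen after seeing the data, gave odds ratios of 0.998 for signal with AP-1 only and 1.05 for neighbours against peaks beyond 100 kb, and 7.08 peaks per Mb. With 1 peak per merged region these were 0.942, 1.05 and 6.92. Keeping the highest IDR score gave 0.994 for AP-1 against peaks inside genes, 1.05 and 0.997 for signal against peaks inside genes and beyond 100 kb, 0.992 for TEAD near against far, and 1 motif past the threshold against peaks inside genes. With 1 TSS per gene, the TEAD odds ratio against promoters was 1.17, that of SP/KLF against peaks inside genes 0.940, that of signal with AP-1 only 1.17 (now past the threshold), with 0 motifs past the threshold against peaks inside genes (Fisher's exact tests) and 23.0% of peaks intergenic. Outside lncRNA genes, signal against peaks inside genes gave 1.07, TEAD near against far 0.920 and neighbours against peaks inside genes 0.898, the last of which was gained as a call.

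Above the median signal value, TEAD gave 0.980 against promoters, 0.981 inside genes and 0.979 beyond 100 kb, neighbours gave 1.17 (no longer past the threshold), 1.01 and 1.00 in that order, 0 motifs passed against peaks inside genes, 25.7% of peaks were intergenic and their density was 3.94 per Mb. A 50 bp window gave 0.996 for AP-1 against peaks inside genes, 1.25 for signal with AP-1 only (past the threshold) and 0 motifs past the threshold against peaks inside genes. A 250 bp window gave 1.07 for the CArG box and 1.02 for the backwards motif against flanks, 1.13 and 0.984 for TEAD against promoters and beyond 100 kb, 0.991 for signal with AP-1 only and 1 motif against peaks inside genes. The shorter TEAD motif gave 1.13 beyond 100 kb, and flanks 5000 bp away 1.03 for the CArG box. Neighbours within 5 kb gave 1.11 against promoters (no longer past the threshold), and within 25 kb 1.03 beyond 100 kb. A logistic model with signal and GC gave 0.993 and 0.961 for TEAD against peaks inside genes and beyond 100 kb, and 0.990 for AP-1 inside genes. With a limit of 50 kb, 17.6% of peaks were intergenic, at 7.79 per Mb.

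Counting any coding TSS within 100 kb, genes with a peak numbered 6689 in all, 14 in the Hippo list, 3 hepatocyte, 2 macrophage and 3 endothelial markers, 33 in the liver fibrosis set, 645 with H3K27ac loss and 169 higher with OGTi. Above the median signal value they numbered 1876 in all, 3 contractile genes, 1 cholangiocyte marker and 34 genes higher with OGTi. The hepatocyte count of 0 thus held for the nearest TSS only. Depth is unknown, so weak or missing peaks cannot be told from low coverage.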

Other observations

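The spacing between neighbouring summits was uneven. The nearest other summit of the list lay 200 to under 220 bp away for 605 of the 5178 intergenic peaks (11.7%), whereas it lay closer than 200 bp for 134, at 220 to under 240 bp for 33 and at 240 to under 300 bp for 43. Among all 21113 listed peaks, 1270 were the weaker summit of a pair so spaced, as were 304 of the 5178 intergenic peaks. The spacing was thus not particular to intergenic peaks. Both summits were intergenic peaks in 300 pairs 200 to under 220 bp apart, and in 299 of these the weaker summit lay at the higher coordinate. This order was counted in intergenic pairs only. The median signal value was 103.4 for the stronger and 18.8 for the weaker summit, with a median ratio of 5.55. TEAD was present at 20.7% of the stronger (16.5 to 25.6) and 8.33% of the weaker summits (5.71 to 12.01), and AP-1 at 29.3% and 8.33%. Many of the genes named in the report had such pairs, so that their peak counts include them: DPYD had 3, CCN1 and BLID had 2 each, and TGFB2, F3, BMP4, SMAD3, TNC, TPM1, COL1A2, DAB2, UGCG, BTBD3, FAM50B, VGLL2 and CFTR had 1 each. For example, the summits had signal values of 573 and 35.7 at CCN1 and of 247 and 13.3 at UGCG, each with the weaker summit at the higher coordinate.

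AP-1 matches were also unevenly placed around the summits of intergenic peaks. At 100 to 250 bp from the summit, 361 AP-1 matches lay towards lower and 228 towards higher coordinates. For TEAD these numbers were 189 and 157. The close pairs of summits described above were included. A match at the stronger summit can therefore be counted again on the lower side of the weaker one. The part of these pairs in the uneven counts was not tested, and no such counts over all listed peaks are given.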
